A study of Drosophila melanogaster with 18 samples.

Results

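Alternative 3′ ends of a gene that lie 2000 nucleotides (nt) or more apart were examined in 3′ RNA-seq data from fly heads. The members are genes with exactly 2 distinct 3′ end rows in the deposited table, each reaching 10 in 6 or more of the 18 libraries, whose annotated 3′ positions are at least 2000 nt apart. Rows of a gene that were identical or differed by under 10% were merged first. Of 452 genes with 2 or more tested ends, 372 had exactly 2, and 178 of these met the rule. A set of 7 genes (*tim*, *14-3-3zeta*, *CG32425*, *CG3262*, *Lmpt*, *AP-1sigma* and *CG17508*) was left out, of which 4 met it, so 174 members remained. The minimum value and the merging used the measured values, and all 7 genes left out passed the test of 29°C against 18°C described below, so counts over the members lack them.

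The libraries were made from heads of *Drosophila melanogaster* flies of the Canton-S strain that were entrained to light-dark cycles at 1 of 3 temperatures (18°C, 25°C and 29°C). At each temperature there was 1 library for each of 6 circadian times, every 4 hours (ZT3 to ZT23, where ZT0 is lights on), so 18 in all. The labels set the groups apart by temperature and time only, and give no age or sex for them. Temperatures were compared over their 6 time points, so p-values measure the spread between libraries of different times and not between repeated cultures.

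A gene with more than one polyadenylation site can end its mRNA near or far from the promoter. When both sites lie in the same last exon, the protein is the same and the distal transcript carries a longer 3′ untranslated region (3′ UTR), where binding sites for microRNAs and RNA-binding proteins are found. When the proximal site lies in an intron, the last exon itself is replaced and the protein usually ends differently. In *Drosophila* neurons the RNA-binding protein ELAV and its relative FNE are known to favour distal sites, and long 3′ UTRs are a known feature of neural tissue.

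Values in the table are a signal, that is, reads that the authors had divided by 1 constant per library. The distal share is the signal of the distal end as a percentage of the signal of both ends. The step between low values put the depth at 1234510 to 6579580 reads per library, lowest at 25°C ZT15 and highest at 29°C ZT23. A member had a median of 100.5 estimated reads per library over both ends, and the median of single members ran from 17 to 8222 reads. These are counts of reads and not of separate molecules. Some lists of cell type markers differed between temperatures. At 29°C against 18°C, 7 of 10 tested rows of photoreceptor genes were higher and none lower, with a summed signal of 97990 to 122200 against 50820 to 63990. All 5 tested fat body rows and 6 of 7 muscle rows were lower at 29°C, with summed signals of 102700 to 206100 against 313900 to 761200 for fat body and 12000 to 14830 against 20970 to 29140 for muscle. For neurons 4 of 18 rows were higher and none lower (2562 to 3340 against 2201 to 2694), and for glia 3 of 6 were lower and none higher (3109 to 3711 against 4387 to 5422). Of all 8748 tested ends, 23% passed in this comparison in either direction, so the neuronal count is near what all ends gave. The fat body list includes yolk protein genes, and whether the mix of sexes differed between temperatures is not known. In whole heads, fewer cells of a type and less RNA per cell cannot be told apart, and the part that these lists have in the results below was not tested.

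The distances between the ends ran from 2005 to 34359 nt with a median of 3369 nt. They lay under 3000 nt in 69 genes, from 3000 to under 5000 nt in 57, from 5000 to under 10000 nt in 36, and at 10000 nt or more in 12. Transcript models of a later annotation (Ensembl, BDGP6) were matched to both ends of 165 members by gene, transcript span and distance. In 94 of them the proximal end lay in an intron of the distal transcript, and in 89 of these the transcripts had no stop codon in common. The 89 include *CR43957*, annotated as an antisense RNA, for which no stop codon applies. In 68 the proximal end lay in the last exon of the distal transcript, and in 60 of these the stop codon was the same, so that the ends differ in 3′ UTR length. In 3 the proximal end lay in an internal exon, and 9 had no matching pair. The median distance was 4183 nt with the proximal end in an intron and 2827 nt within a last exon. All 12 members with ends at least 10000 nt apart were of the intron kind.

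The 5 widest distances belonged to *CG34417* (34359 nt), *mbl* (25825 nt), *Cngl* (19695 nt), *dysc* (18312 nt) and *CG45263* (14843 nt). *mbl* encodes Muscleblind, a splicing regulator, *Cngl* a cyclic nucleotide-gated channel-like protein, and *dysc* Dyschronic, a PDZ-domain protein. The distal end of *CG34417* took 90.3% ± 3.91 of the signal, that of *dysc* 86.5% ± 7.65, that of *Cngl* 78.2% ± 14.07 and that of *CG45263* 73.9% ± 13.3 (mean ± SD, n = 18 libraries). *mbl* differed from these in order, with a distal share of 43.8% ± 7.83. At the threshold, the members just inside were *CG11155* at 2005 nt and *Mef2* at 2006 nt, with distal shares of 10.3% ± 5.80 and 68.4% ± 9.62. The genes just outside were *Eps-15* at 1984 nt and *Galphao* at 1983 nt, with 35.6% ± 7.36 and 43.7% ± 6.64.

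**Figure D1:**
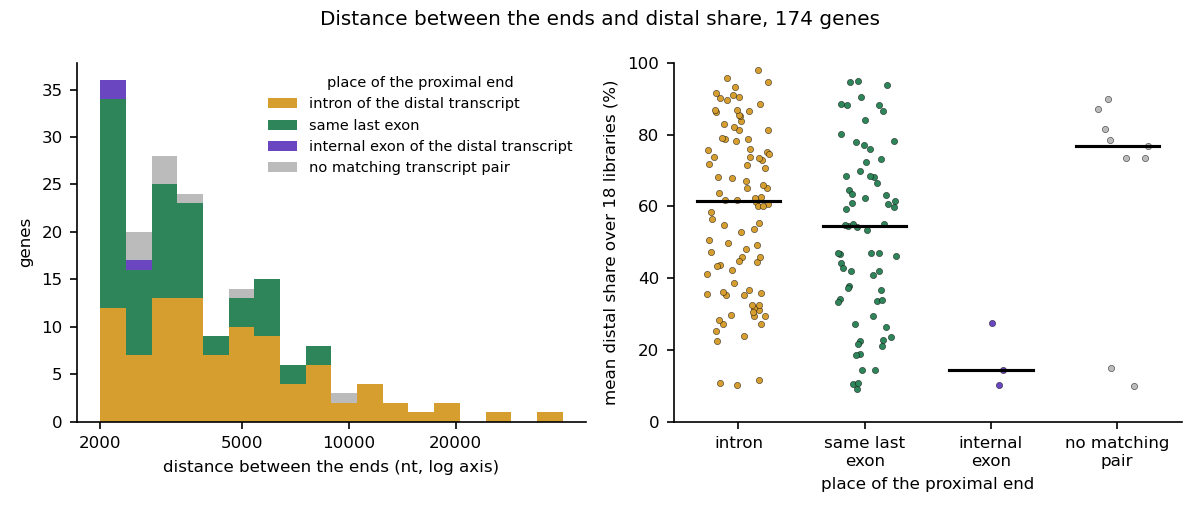
Left, number of members by the distance between their ends (nt, log axis), stacked by where the proximal end lies in the annotated distal transcript. Right, mean distal share over 18 libraries (%) of each member by the same classes, with the class median as a bar (61.5% for the 94 intron members and 54.4% for the 68 last-exon members). Both large classes span nearly the whole range of shares.

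Neither end was the usual one over the members as a whole. The rule for members limits this reading, as both ends had to reach the minimum value. Genes with a weakly used other end are therefore largely absent. Rows that hardly differed were merged, so some pairs of near-equal ends may be missing too. The shares describe the members and not all genes with alternative ends. The mean distal share exceeded 50% in 101 members and was at or under 50% in 73, with a median of 59.6% and a range of 9.05% to 98.0%. In the 194 genes whose 2 ends were less than 2000 nt apart the median was 53.9%. Intron members had a median of 61.5% with 58 of 94 over 50%, and last-exon members had 54.4% with 36 of 68 over 50%. By distance the medians were 60.8% (under 3000 nt), 47.3% (3000 to under 5000 nt), 62.9% (5000 to under 10000 nt) and 73.7% (10000 nt or more), so the share did not follow distance in order. The summed signal of all members was less distal than the median gene, at 37.3% to 41.5% of the signal in the 18 libraries.

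The highest distal shares were those of *Zasp52*, *CG10077* and *slo*. *Zasp52*, which encodes a Z-disc protein of muscle, had 98.0% ± 1.02 with a range of 95.9% to 99.8%. *CG10077* had 95.7% ± 3.15. *slo*, the large-conductance calcium-activated potassium channel, had 95.0% ± 2.47, and its 2 ends lay in one last exon. The lowest were those of *Ggamma30A* (9.05% ± 2.20), *koi* (9.92% ± 5.25) and *CG42307* (10.1% ± 6.30). *Ggamma30A* encodes a G protein gamma subunit of photoreceptors and *koi* the nuclear envelope protein Klaroid. In *CG42307* the distal end reached a value of 10 in 8 of 18 libraries, so its share rests on few reads.

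Among the 5 members with the most signal, the order of the ends also varied. *fabp*, which encodes a fatty acid-binding protein, had the largest signal (8752 on average over both ends) and a distal share of 11.6% ± 0.73. *Ggamma30A* followed with a signal of 6688. *IA-2*, a tyrosine phosphatase-like protein of secretory vesicles, had a signal of 2525 and a distal share of 14.4% ± 2.24. *CG9821* (now *aqz*) had a signal of 2216 and a distal share of 54.5% ± 3.70. *Tequila*, a serine protease related to neurotrypsin, had a signal of 1330 and a distal share of 78.9% ± 4.54. Across the temperatures the distal share of *fabp* averaged 11.7% ± 0.78 at 18°C, 11.2% ± 0.74 at 25°C and 11.95% ± 0.50 at 29°C (SD, n = 6 each). Its proximal and distal signals were both lower at 29°C than at 18°C, by similar amounts on the log2 scale (-0.56 ± 0.08 and -0.53 ± 0.10, SE, limma adjusted p = 5.51e-06 and 0.00012), so the level changed without a detected change of end. The distal *fabp* end shares its annotated position with an end of the gene *sea*, so the distal share and distal level of *fabp* may include reads of *sea*.

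Members were grouped by their known roles. The groups were made with the members' names in view, hold 67 of the 174, and were not tested. Of 14 ion channels and their partners, 10 had a distal share over 50%, with a median of 64.4%. The sodium channel *para* had 93.8% ± 3.12 and the glutamate-gated chloride channel *GluClalpha* 88.7% ± 4.07, while the potassium channel subunit *Hk* had 18.9% ± 4.98. The GABA receptor *Rdl* (46.7% ± 7.07) and the acetylcholine receptor subunits *nAChRalpha6* (42.9% ± 8.03) and *nAChRbeta1* (55.3% ± 4.66) used both ends to a like extent. None of the 14 passed the limma test at 29°C against 18°C, where 8.85% of all genes did, so that in a group of this size nothing can be read from it.

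In 14 RNA-binding, RNA decay and silencing genes, 9 had a distal share over 50%, with a median of 62.6%, and in 9 of the 14 both ends lay in one last exon. The microRNA effector *AGO1* (94.8% ± 2.81) and the translational repressor *pum* (88.6% ± 6.79) ended mostly at the distal site. *brat*, another translational repressor, had 61.8% ± 9.94. *Hrb27C*, an hnRNP protein, had 14.5% ± 2.74. The neuronal ELAV family was split: *elav* had a distal share of 66.6% ± 16.0 over a distance of 7615 nt, and its relative *Rbp9* had 18.5% ± 4.55 over 3583 nt. At the 3 temperatures the share of *elav* averaged 65.5% ± 12.8 at 18°C, 74.8% ± 16.09 at 25°C and 59.6% ± 17.5 at 29°C, and that of *Rbp9* 17.2% ± 4.83, 19.7% ± 4.94 and 18.4% ± 4.36 (SD, n = 6 each). For both genes the difference at 29°C against 18°C was smaller than the spread between libraries (limma adjusted p = 0.795 for *elav* and 0.792 for *Rbp9*).

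Of 14 other genes of neuronal signalling, 6 had a distal share over 50%, with a median of 40.1%. The synaptic vesicle priming factor *unc-13* (10.8% ± 5.22) and the G protein beta subunit *Gbeta13F* (15.02% ± 3.20) were mainly proximal, and the serotonin receptor *5-HT2A* was mainly distal (90.4% ± 6.24). Among 12 genes of cell adhesion and extracellular matrix 5 had a distal share over 50%, from 10.9% in the thrombospondin gene *Tsp* to 91.7% in *Meltrin*. The cell adhesion molecules *Fas2* and *CadN*, both of axons, differed in their main end, *Fas2* with 35.9% ± 9.003 and *CadN* with 64.6% ± 9.98. Among 13 transcription and chromatin factors 7 had a distal share over 50%. The clock transcription factor *Pdp1* had 46.9% ± 6.33, and averaged 50.4% ± 5.02 at 18°C, 46.6% ± 6.93 at 25°C and 43.7% ± 6.04 at 29°C (SD, n = 6 each, limma adjusted p = 0.264 for 29°C against 18°C).

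**Figure D2:**
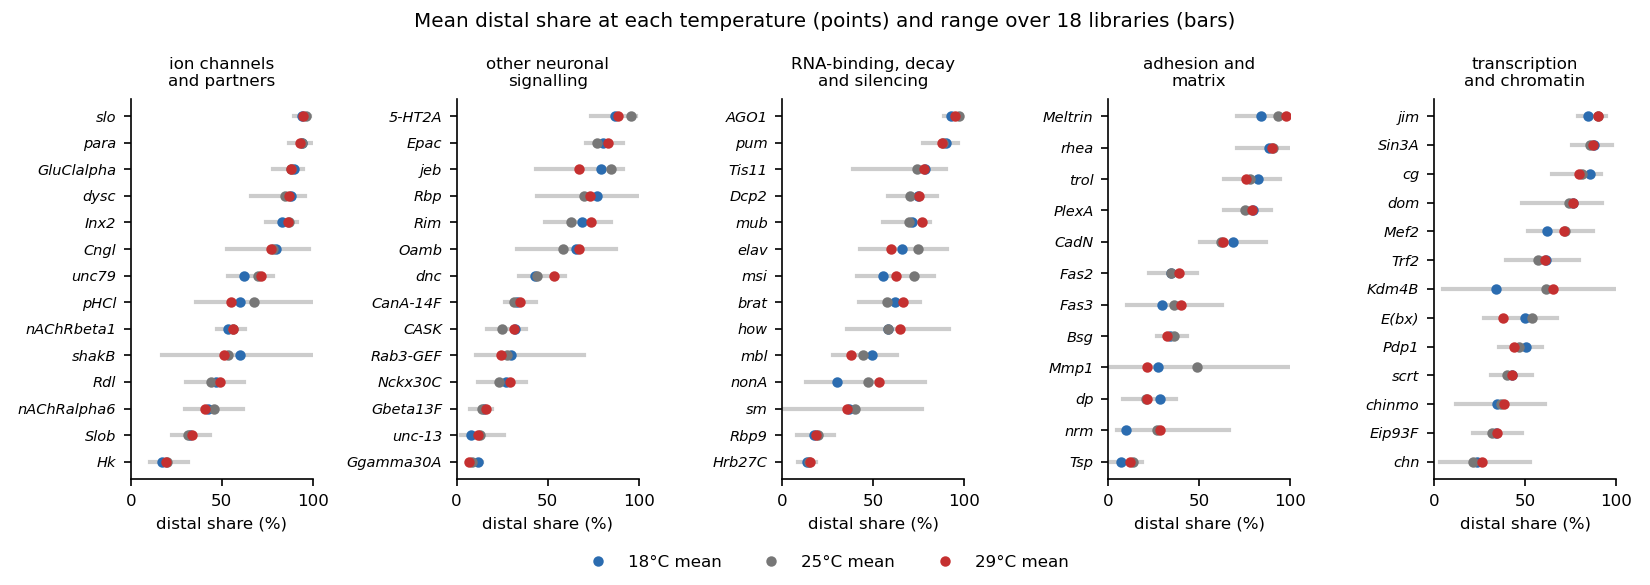
Distal share (%) of 67 members in 5 groups of known role. Points are the means of the 3 temperatures (n = 6 libraries each) and bars run from the lowest to the highest of 18 libraries. Within each group shares range from mainly proximal (*Hk* 18.9%, *Hrb27C* 14.5%) to mainly distal (*slo* 95.0%, *AGO1* 94.8%), and the 3 temperature means of most genes lie close together beside the range over libraries.

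The question whether temperature shifts the choice of end was put to all 452 genes with 2 or more tested ends, with limma on log2((distal + 1)/(proximal + 1)) and Benjamini-Hochberg adjustment over all 452. At 29°C against 18°C, 12 of 174 members passed an adjusted p of 0.05, where 8.85% of all 452 genes passed. All 7 genes left out of the members passed, and without them 33 of 445 genes did (7.42%). With the 4 of them that met the rule, 16 of 178 passed. The share in the members was thus near that of all genes on either count. Of the 12, 8 had a higher distal share at 29°C (5.53% of the 452 did) and 4 a lower one (3.32% did). In the 194 genes with closer ends, 17 passed. Unlike the members, that set keeps its left-out genes *14-3-3zeta*, *AP-1sigma* and *CG17508*, which are among the 17. The median difference of the log2 ratio was 0.07 in the members and 0.06 in all genes tested, and 95 of 174 members had a difference above 0. The 29°C and 18°C libraries did not overlap in 3 members (*Ggamma30A*, *nrm* and *CG43427*), against 4.65% of all genes.

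**Figure D3:**
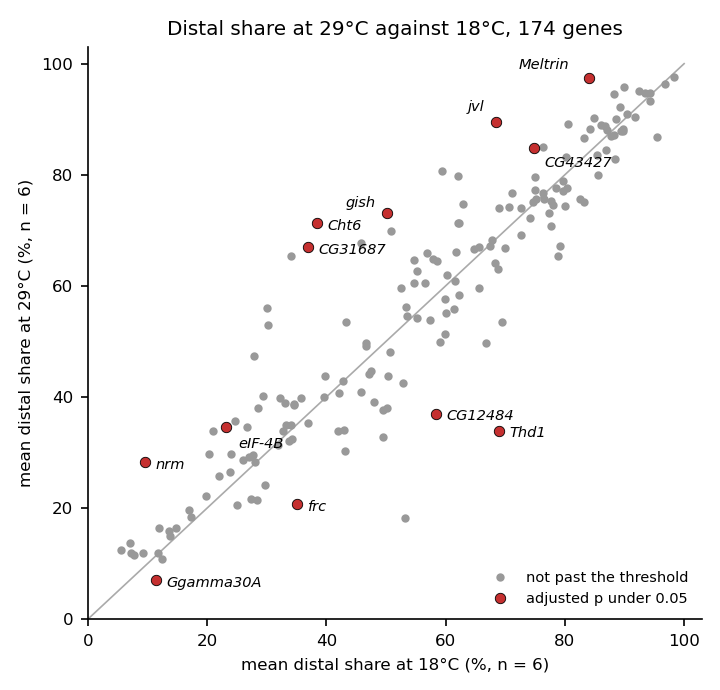
Mean distal share at 29°C (%, vertical axis) against 18°C (%, horizontal axis) for the 174 members, n = 6 libraries each, with the line of equal shares. Red points are the 12 members past an adjusted p of 0.05. Of these, 8 lie above the line and 4 below it. Some members without a call lie as far from the line as members with one.

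*Ggamma30A* gave the lowest p of the members. Its ends lie in one last exon, 2257 nt apart, at positions 9293264 (proximal) and 9295521 (distal) of chromosome arm 2L (dm3, plus strand), and the stop codon is shared. The distal share had a lowest value of 5.48%, a median of 7.47% and a highest of 7.996% at 29°C, against 9.61%, 11.4% and 13.95% at 18°C. The libraries of the 2 temperatures do not overlap, and at each of the 6 times the 29°C library was lower. The log2 ratio differed by -0.79 ± 0.11 (SE, adjusted p = 0.000108, limma), and at 25°C the share was between the others, at 8.72% ± 0.85 (SD, n = 6). Both ends changed level, in opposite directions. The proximal signal averaged 6662 ± 793 at 29°C and 5316 ± 329 at 18°C (log2 difference 0.32 ± 0.08, adjusted p = 0.00363, limma), and the distal signal averaged 493 ± 35.4 at 29°C and 687 ± 93.2 at 18°C (-0.47 ± 0.10, adjusted p = 0.000798, limma). Without the filter on low values another end, 6973 nt farther and listed at 0 in most libraries, became the distal one, and its ratio gave -0.25 (adjusted p = 0.833, limma). *Ggamma30A* was the only member with both ends past the threshold in opposite directions. With scaling by library size the distal difference was -0.28 (adjusted p = 0.0717, limma). The photoreceptor markers given above were higher at 29°C than at 18°C.

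In *Thd1* (now *Tdg*), which encodes a thymine DNA glycosylase, the ends lie in one last exon at positions 565894 (proximal) and 561186 (distal) of chromosome 4 (dm3, minus strand), 4708 nt apart. Its distal share had a lowest value of 17.07%, a median of 25.8% and a highest of 64.7% at 29°C, against 59.0%, 68.8% and 85.7% at 18°C. Only the 29°C ZT7 library reached the range of the 18°C libraries. The log2 ratio differed by -2.06 ± 0.46 (SE, adjusted p = 0.00956, limma). Its proximal end was higher at 29°C (20.9 ± 7.53) than at 18°C (7.89 ± 3.76), a log2 difference of 1.32 ± 0.44 (adjusted p = 0.026, limma), and its distal end had a difference of -0.73 ± 0.47 that did not pass (adjusted p = 0.296, limma). A member of low signal, it had a median of 27.5 estimated reads per library. Without ZT11 the adjusted p for the ratio was 0.0542 (limma).

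The other 2 members with a lower distal share at 29°C were *CG12484* (now *side-VIII*), of the Sidestep family of cell surface proteins, and *frc*, a transporter of nucleotide sugars. In *CG12484* the ends lie 7987 nt apart at 16358469 and 16366456 of 2R (dm3, plus strand), the proximal one in an intron. The share had a lowest value of 21.9%, a median of 38.6% and a highest of 51.9% at 29°C, against 45.6%, 57.7% and 70.9% at 18°C (log2 ratio -1.27 ± 0.38, SE, adjusted p = 0.0442, limma). The ranges overlap between 45.6% and 51.9%. Here the distal end was the one that fell, with 19.98 ± 7.85 at 29°C and 42.5 ± 12.1 at 18°C (log2 difference -1.09 ± 0.31, adjusted p = 0.0101, limma). In *frc* the ends lie 2646 nt apart at 17424682 and 17422036 of 3L (dm3, minus strand). Its share had a lowest value of 15.6%, a median of 20.3% and a highest of 25.3% at 29°C, against 24.8%, 34.1% and 46.7% at 18°C (log2 ratio -1.01 ± 0.31, adjusted p = 0.0455, limma), so the ranges overlapped only between 24.8% and 25.3%. The distal row of *frc* is identical to a row of the neighbouring gene *CG32174*, which ends at the same position, so reads of the 2 genes cannot be told apart there. The call of *frc* was lost without any 1 of the 6 times (adjusted p up to 0.176) and that of *CG12484* without ZT3, ZT7, ZT11 or ZT15 (up to 0.201, limma). With diffSplice neither passed (adjusted p = 0.0553 for both, limma).

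The 8 members with a higher distal share at 29°C included 3 with ends in one last exon. *nrm*, which encodes the cell adhesion protein Neuromusculin, has ends 2023 nt apart at 23031377 and 23033400 of 3L (dm3, plus strand). Its distal share had a lowest value of 14.6%, a median of 30.0% and a highest of 34.3% at 29°C, against 5.03%, 9.03% and 14.2% at 18°C, with no overlap. The log2 ratio differed by 1.81 ± 0.47 (SE, adjusted p = 0.0216, limma). The distal end was higher, at 23.2 ± 10.5 at 29°C and 9.08 ± 3.86 at 18°C (log2 difference 1.24 ± 0.43, adjusted p = 0.0338, limma). At 25°C the mean share of 27.0% ± 19.5 includes a library of 66.1% at ZT15, the shallowest of the series. The call did not hold without ZT3, ZT7, ZT11 or ZT19 (adjusted p up to 0.0734, limma).

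*gish*, which encodes the casein kinase 1 gamma Gilgamesh, and *CG31687* were the other last-exon members with a higher share. *gish* had a lowest distal share of 66.2%, a median of 75.5% and a highest of 77.4% at 29°C, against 22.97%, 53.1% and 67.2% at 18°C (log2 ratio 1.44 ± 0.42, SE, adjusted p = 0.0396, limma). The 18°C libraries of *gish* were more spread than those of 29°C, and the ranges overlap between 66.2% and 67.2%. Its distal end rose, to 67.4 ± 10.7 at 29°C against 37.1 ± 9.21 at 18°C (log2 difference 0.87 ± 0.22, adjusted p = 0.0034, limma). *CG31687* had 55.3%, 69.7% and 77.0% at 29°C, against 13.11%, 41.4% and 56.2% at 18°C (lowest, median and highest, log2 ratio 1.86 ± 0.54, adjusted p = 0.0402, limma). This gene and its neighbour *CG31688*, also a member, had equal proximal values in 10 of 18 libraries, so reads may not be assigned to one of the 2 and both are uncertain. For *CG31688* the log2 ratio differed by 1.44 ± 0.53 (adjusted p = 0.106, limma). Calls were lost without ZT7, ZT11, ZT19 or ZT23 for *gish* (adjusted p up to 0.149), and without any 1 time other than ZT23 for *CG31687* (up to 0.113, limma).

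In the remaining 5 members with a higher distal share at 29°C the proximal end lies in an intron of the distal transcript and the stop codons differ. *eIF-4B*, a translation initiation factor, had the longest distance of the 12, 13697 nt between 2903663 and 2917360 of 2RHet (dm3, plus strand). Its distal share had a lowest value of 26.2%, a median of 35.1% and a highest of 43.5% at 29°C, against 17.8%, 22.7% and 29.15% at 18°C. Values at 29°C were higher at each of the 6 times. The log2 ratio differed by 0.81 ± 0.21 (SE, adjusted p = 0.0201, limma). The distal signal rose, to 109 ± 27.6 at 29°C against 71.1 ± 11.6 at 18°C (log2 difference 0.59 ± 0.18, adjusted p = 0.0168, limma), and the proximal signal averaged 205 ± 21.2 at 29°C and 238 ± 24.8 at 18°C (-0.22 ± 0.12, adjusted p = 0.214, limma). Without ZT7 or ZT19 the call on the ratio was lost (adjusted p up to 0.109, limma).

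*CG43427* (now *smash*) encodes a LIM-domain protein of cell junctions and has ends 6684 nt apart on 3R. It had a lowest distal share of 83.1%, a median of 84.3% and a highest of 87.2% at 29°C, against 71.7%, 74.5% and 79.3% at 18°C. The ranges are narrow and do not overlap, and the 25°C libraries averaged 84.6% ± 5.48, close to those of 29°C. The log2 ratio at 29°C against 18°C differed by 0.88 ± 0.25 (SE, adjusted p = 0.0381, limma). Neither end alone passed (distal 0.16 ± 0.17, adjusted p = 0.563, and proximal -0.72 ± 0.30, adjusted p = 0.0882, limma). Leaving out any 1 time other than ZT15 moved the adjusted p for the ratio above the threshold, to 0.112 at most (limma), and diffSplice gave 0.0655.

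*jvl*, *Meltrin* and *Cht6* had few reads at one end. *jvl* encodes a microtubule-associated protein, *Meltrin* a metalloprotease of the ADAM family and *Cht6* a chitinase. *jvl* had a lowest distal share of 70.0%, a median of 96.5% and a highest of 100% at 29°C, against 55.3%, 68.3% and 84.6% at 18°C (log2 ratio 2.53 ± 0.70, SE, adjusted p = 0.0344, limma), and its proximal end reached 10 in only 6 of 18 libraries. *Meltrin* had 86.4%, 100% and 100% at 29°C, against 70.6%, 84.7% and 94.0% at 18°C (lowest, median and highest, log2 ratio 2.35 ± 0.67, adjusted p = 0.0396, limma). Its whole signal was lower at 29°C. The distal end averaged 45.5 ± 18.5 at 29°C and 92.7 ± 23.6 at 18°C, and the proximal end ran from 0 to 5.66 at 29°C and from 5.50 to 28.6 at 18°C (log2 differences -1.12 ± 0.27 and -3.47 ± 0.74, adjusted p = 0.00257 and 0.000703, limma). No 29°C library of its proximal end reached 10, so *Meltrin* met the minimum for members only through the cooler libraries. The call of *Meltrin* is therefore not independent of that filter. The same may hold for *jvl* and *Cht6*, whose proximal ends were also lower at 29°C than at 18°C. For *jvl* that difference did not pass (log2 difference -1.43 ± 0.72, adjusted p = 0.16, limma). Without the filter the calls of *Meltrin* and *jvl* were lost (adjusted p = 0.0603 and 0.056, limma). Their log2 ratios stayed at 2.35 and 2.53, and the adjustment then ran over 737 genes. Calls of members with more reads at both ends were lost there too, such as *CG43427* and *frc* (adjusted p = 0.0603 and 0.0757, limma). Those of *Thd1*, *eIF-4B* and *nrm* were kept. The loss therefore does not show a dependence on the filter that is particular to low ends. A fitted difference against an end near 0 depends on the pseudocount and is no bound: for *Meltrin* the log2 ratio was 3.76 with a pseudocount of 0.25 and 0.83 with 5, where the call was lost (adjusted p = 0.242, limma). *Cht6* had 40%, 77.1% and 90.9% at 29°C, against 10.8%, 41.7% and 53.0% at 18°C (log2 ratio 2.13 ± 0.65, adjusted p = 0.0475, limma), and its proximal end fell, to 8.20 ± 8.25 at 29°C against 26.5 ± 7.09 at 18°C (-2.002 ± 0.51, adjusted p = 0.00407, limma). Calls were lost without ZT7, ZT11, ZT15 or ZT23 for *jvl* (adjusted p up to 0.12), without any 1 time other than ZT23 for *Meltrin* (up to 0.188) and without any 1 time other than ZT11 for *Cht6* (up to 0.146, limma). *Cht6* was not called by diffSplice either (adjusted p = 0.0553, limma).

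**Figure D4:**
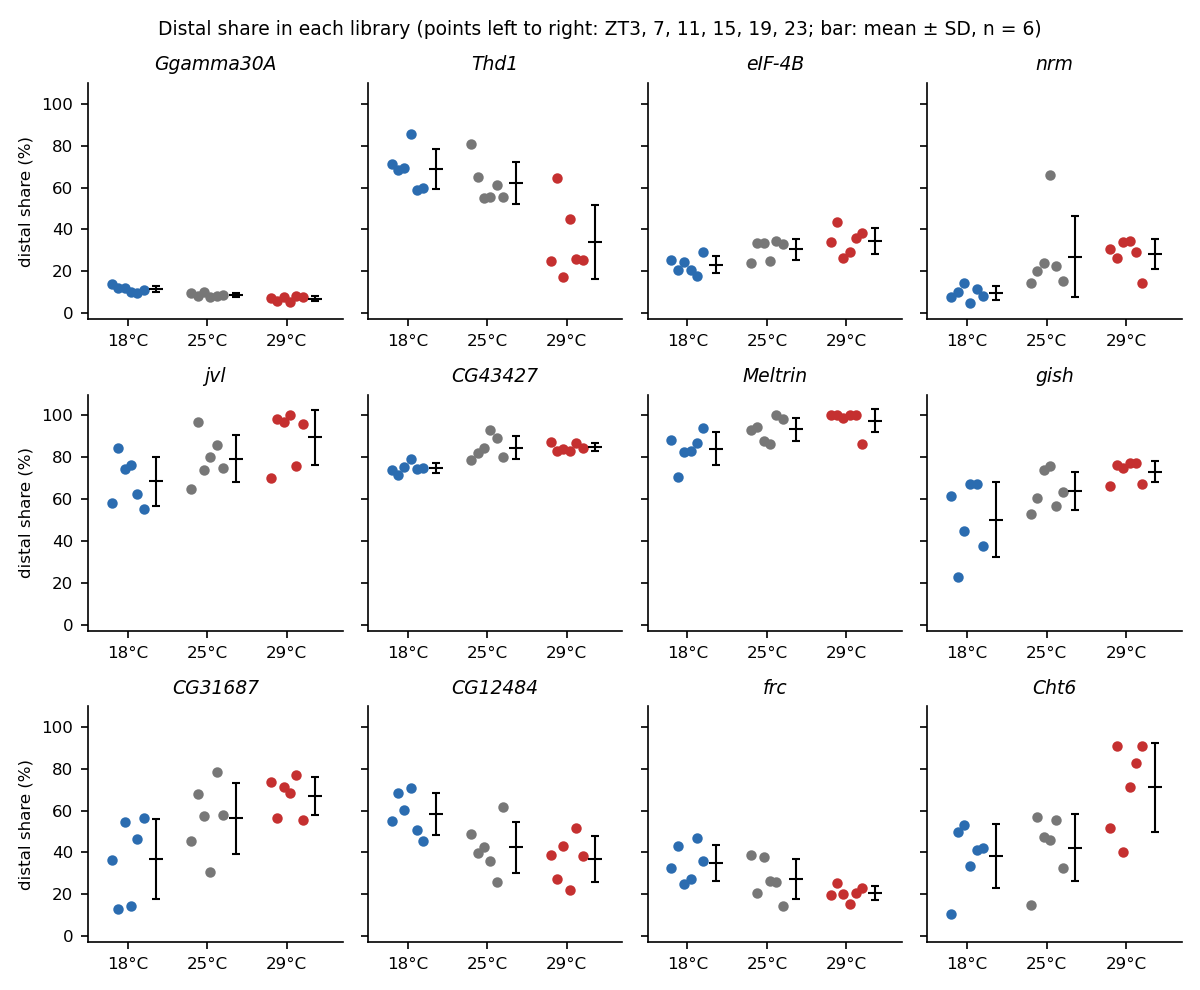
Distal share (%) of the 12 members past an adjusted p of 0.05 at 29°C against 18°C, in every library of the 3 temperatures. Points run from ZT3 on the left to ZT23 on the right within a temperature, and the bar at the right is the mean ± SD of 6. *Ggamma30A*, *nrm* and *CG43427* have no overlap between 29°C and 18°C, and *Thd1* overlaps through 1 library at 29°C.

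Across the 12, the distal end passed its own test in 8 members (4 higher and 4 lower at 29°C) and the proximal end in 5 (2 higher and 3 lower), on limma's adjusted p over 8748 tested ends. With scaling by library size the distal end of *Ggamma30A* and the proximal end of *CG31687* (adjusted p = 0.0903, limma) no longer passed. Leaving out 1 of the 6 times at all temperatures gave 3 to 8 calls in members. *Ggamma30A* was called in each of these 6 fits and *Thd1* in 5 of 6. In terms of place, 6 of the 12 calls fell among the 94 intron members, 5 among the 68 last-exon members and 1 among the 3 with a proximal end in an internal exon.

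Among members that did not pass, *mbl*, *nonA* and *unc79* are given here, the last pair chosen after their values were seen. The distal share of *mbl*, whose ends are 25825 nt apart, had a lowest value of 28.0%, a median of 38.9% and a highest of 43.3% at 29°C, against 41.5%, 47.6% and 63.1% at 18°C. The ranges overlap between 41.5% and 43.3%, and the difference of the log2 ratio of -0.69 ± 0.23 (SE) did not pass (adjusted p = 0.0728, limma). Its proximal end was higher at 29°C, with 125 ± 30.5 at 29°C and 66.5 ± 24.1 at 18°C (log2 difference 0.97 ± 0.24, adjusted p = 0.00347, limma). *nonA*, an RNA-binding protein, averaged 30.3% ± 12.1 at 18°C, 46.9% ± 16.2 at 25°C and 53.0% ± 11.4 at 29°C (SD, n = 6 each, adjusted p = 0.0746 for 29°C against 18°C, limma). *unc79*, a subunit of the NALCN channel complex, averaged 62.2% ± 8.14 at 18°C, 70.1% ± 4.37 at 25°C and 71.4% ± 4.57 at 29°C (adjusted p = 0.125, limma). In alternative fits *mbl* passed with the share in percent and with 10 in all 18 libraries. *nonA* passed without ZT15 and without the 25°C ZT15 library alone, and *unc79* without ZT7. None of these genes passed in the other alternatives.

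The level of each end was also compared. At 29°C against 18°C, 56 of 348 member ends passed (28 higher and 28 lower), where 23% of all 8748 tested ends passed, a larger share than in the members, and this difference was not tested. At 18°C against 25°C it was 22 (7 higher and 15 lower, with 10.8% of all ends) and at 29°C against 25°C 2, both lower (2.03% of all ends). With scaling by library size, which moved the median log2 difference of all ends at 29°C against 18°C to 0.24 where the deposited scaling had 0.05, the split at 29°C against 18°C became 44 higher and 16 lower. At 18°C against 25°C it became 3 higher and 38 lower, with a median of all ends of -0.18 where the deposited scaling had -0.02. In 12 members both ends changed level at 29°C against 18°C, of which 6 had both higher and 5 both lower. In 17 the distal end alone passed and in 15 the proximal end alone. *SPoCk*, a calcium pump of the secretory pathway, rose at both ends (0.59 ± 0.16 distal and 0.65 ± 0.16 proximal, adjusted p = 0.00697 and 0.00382, limma). Its distal share varied by less than the counting of reads gives, and whether its rows hold some of the same reads was not tested. *Zasp52* fell at its distal end (-0.78 ± 0.10, adjusted p = 9.12e-07, limma), beside the fall of the muscle markers.

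At 18°C against 25°C none of the 174 members passed (limma, with 30 at an unadjusted p under 0.05), where 1.55% of all 452 genes did. Of these 7 genes 4 were among the 7 left out, 3 of which met the rule, and without them the share was 0.674%. In members limma's diffSplice gave 1 call, *AGO1*. The closest was *Ggamma30A*, with a distal share of 11.5% ± 1.56 at 18°C and 8.72% ± 0.85 at 25°C (SD, n = 6 each, log2 ratio 0.43 ± 0.11, SE, adjusted p = 0.0526, limma). The serotonin receptor *5-HT2A* came next, with 86.8% ± 7.30 at 18°C and 95.7% ± 3.06 at 25°C (-1.59 ± 0.42, adjusted p = 0.0579, limma), and *CG43427* had the same adjusted p (-0.93 ± 0.25). At 29°C against 25°C no member passed (limma, with 16 at an unadjusted p under 0.05, and 0 by diffSplice), where 0.221% of all genes did, and the lowest adjusted p among members was 0.135, for *Thd1* and *5-HT2A*. The share of *5-HT2A* was 88.8% ± 4.11 at 29°C, so its 25°C mean was above those of both other temperatures. This is not particular to *5-HT2A*, as *msi* and *AGO1* also had their highest mean at 25°C. The median distal share over members, taken in each library, averaged 57.1% ± 3.104 at 18°C, 56.9% ± 1.22 at 25°C and 57.8% ± 2.53 at 29°C (SD, n = 6 each), and ran from 53.7% to 62.4% over the 18 libraries.

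The time of day was examined as light (ZT3, ZT7 and ZT11) against dark (ZT15, ZT19 and ZT23), with temperature as a term. No gene of the 452 passed (0% called, limma), while 12 members and 25 of all genes had an unadjusted p under 0.05. The lowest were *Fas2*, *slo* and *jeb*. *Fas2*, the adhesion molecule Fasciclin 2, had a lowest distal share of 30.6%, a median of 44.5% and a highest of 48.7% in light, against 22.3%, 30.2% and 43.0% in dark (log2 ratio 0.75 ± 0.22, SE, adjusted p = 0.529, limma). *slo* had 89.9%, 93.7% and 96.3% in light, against 91.6%, 97.1% and 98.6% in dark (-0.83 ± 0.25, adjusted p = 0.529, limma). *jeb*, the ligand Jelly belly, had 43.5%, 73.5% and 89.5% in light, against 69.6%, 87.5% and 91.7% in dark (-1.14 ± 0.38, adjusted p = 0.658, limma). In all 3 the ranges overlap. An interaction of light or dark with temperature passed in 0 of the 452 genes (limma, 23 at an unadjusted p under 0.05).

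Genes of 3′ end processing and of the ELAV family were read from a list of 20, of which 18 genes with 23 rows were tested. At 29°C against 18°C 6 rows of 3 genes were higher and none lower, a share near the 23% of all ends that passed. These were *hrg*, which encodes a poly(A) polymerase (log2 difference 1.11 ± 0.27, SE, adjusted p = 0.0025, limma), both ends of the member *Rbp9* (0.64 ± 0.11 proximal, adjusted p = 1e-04, and 0.78 ± 0.21 distal, adjusted p = 0.00708, limma), and 3 of 4 rows of *fne*. The member *elav* had 0.01 ± 0.34 at its distal and 0.32 ± 0.55 at its proximal end (adjusted p = 0.995 and 0.743, limma). The summed signal of the list, ELAV family included, was 1651 to 1952 at 29°C and 1224 to 1372 at 18°C. Outside the ELAV family only *hrg* passed. *Pabp2*, *CstF-64*, *CG7185*, *CstF-50* and *Cpsf73* had differences below 0 that did not pass, and the other rows were above 0. Among markers, 7 of 10 photoreceptor rows and 4 of 18 neuronal rows passed as higher at 29°C, and the summed neuronal signals overlapped.

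The distal share varied between libraries of one temperature by more than the counting of reads gives. Its SD within a temperature had a median of 8.59 percentage points, against 4.45 expected from counting estimated reads, and was above the counting value in 167 of 174 members. The range over the 18 libraries had a median of 30.9 points and reached at least 50 points in 39 members. Among members with a summed mean signal of at least 50, the smallest SDs over 18 libraries were those of *fabp* (0.73), *Zasp52* (1.02) and *SPoCk* (1.37), and the largest those of *shakB* (18.2), *tyf* (16.9) and *CG13606* (16.6). *shakB* encodes a gap junction innexin and *tyf* a translation activator of the circadian clock. In *shakB* the share ran from 17.2% to 100% and in *tyf* from 19.5% to 90.9%. The 7 members below the counting value were *CG10732*, *CG14446*, *CG34449*, *CR43957*, *Cka*, *SPoCk* and *St3*. In *SPoCk* the SD within a temperature was 1.33 points where counting gives 2.93, and in *CR43957*, annotated as an antisense RNA, it was 5.67 where counting gives 11.7. Whether counting used the strand is not given in the sources used here. Whether the 2 rows of these genes hold some of the same reads was not tested.

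**Figure D5:**
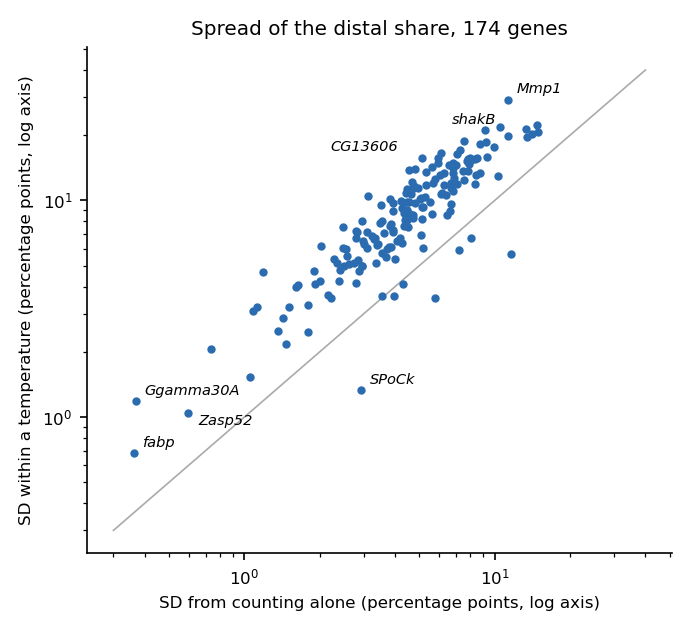
SD of the distal share within a temperature (percentage points, vertical log axis) against the SD expected from counting reads alone (horizontal log axis) for the 174 members, with the line of equality. Of these, 167 lie above the line and 7 below it, *SPoCk* among them (1.33 against 2.93).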

How the data were processed

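RNA from heads was made into 3′ RNA-seq libraries, and the authors deposited 1 table with a signal per annotated transcript and library, in which reads had been divided by a constant per library. The submitters' processing notes name Bowtie2, TopHat, Cufflinks and dm3. How reads were assigned to transcripts is not given in the sources used here. Samples were grouped by the temperature in their labels, and the time called 18 h in titles is ZT19 in the column names. No value column was left unmapped (0). Of 29561 rows, 667 had no values and 836 no position. Identical rows of a gene, and rows that differed by under 10%, were merged (16029 ends), and ends with at least 10 in at least 6 libraries were tested (8748 ends of 8107 genes). Where a merged end had several annotated positions (56 members), the distance was taken between the nearest ones. Between 97.6% and 98.5% of values were whole multiples (within 0.01) of a step taken as 1 read. The rest were fractions, so no count model was used, and depth is the sum over distinct ends in such steps. Positions count from 1.

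The most distal end was set against the sum of the others in limma 3.58.1 (R 4.3.3) with an intensity trend, a pseudocount of 1 and Benjamini-Hochberg adjustment over 452 genes, threshold 0.05. Log2 ratios understate changes of low ends. End levels were fitted as log2(signal + 1). The fit was tested on simulated data. The rule, the members, the gene lists and the tests were chosen with earlier results of these data known. Genes are named if they passed a test, had the 5 widest or the smallest distances, the 3 highest or lowest shares, the 5 largest signals, the 3 lowest p for light against dark or, at a summed signal of at least 50, the 3 largest or smallest SDs. Genes in role groups were named with their values seen. Of the marker lists *Fbp1*, and of the 3′ end list *Pcf11* and *Rbbp6*, had no tested row. Symbols are those of the table, with newer ones (32 members) from the supplied gene table.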

Additional observations from a re-analysis of the deposited data

Results flagged for a closer look

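For each of 34 named members the distal share was screened within each temperature for a library far from the other 5 by Dixon's test at the 95% level. This gave 9 groups. Chance alone gives about 1 in 20 groups, or 5.1 here, if values are normal and genes are picked without regard to spread. Some of the 34 were named for a large SD, *shakB* and *CG13606* among them, and shares near 100% are bounded. The 5.1 is therefore only a guide. At 25°C the library of *nrm* at ZT15 had a distal share of 66.1% (the others 14.4% to 23.9%), that of *CG45263* at ZT19 41.9% (66.7% to 81.4%), that of *CG11155* at ZT19 8.04% (12.6% to 14.8%), that of *CG9821* at ZT15 45.8% (52.4% to 55.2%) and that of *shakB* at ZT19 17.2% (56.1% to 67.2%). The 25°C ZT15 and ZT19 libraries, with 1234510 and 2278910 estimated reads, hold all 5 and are the shallowest of that temperature. At 29°C *Meltrin* had 86.4% at ZT23 (98.6% to 100%), *IA-2* 18.98% at ZT23 (14.5% to 16.09%), *Tequila* 72.0% at ZT15 (77.6% to 80.7%) and *CG13606* 47.3% at ZT3 (80.4% to 96.2%). The 29°C ZT23 library, with 6579580 estimated reads, is the deepest of the series. The estimated reads of both ends in these libraries ran from 29 for *shakB* to 4260 for *IA-2*.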

How the results depend on the processing

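The number of calls at 29°C against 18°C changed with the low-value filter and when single times were left out. Fits without a time have fewer libraries, so a lost call does not by itself show a dependence on that time. Without the filter 25 of 737 genes with 2 ends and 4 of 306 members passed (3 of them among the 12), against 40 and 12 with it, and leaving out a time point, or the shallow 25°C ZT15 library, gave 20 to 39 genes and 3 to 11 members. Of 161 recomputed values of the 12, 94 kept their call, 67 lost it and 0 changed sign. *Ggamma30A* lost it only without the filter (-0.25), where a farther end was compared. diffSplice lost *CG43427*, *CG12484*, *frc* and *Cht6*. A pseudocount of 0.25 or 5, the share in percent, diffSplice, and 10 in all 18 libraries (5 of 9 shared) gave 8 to 12 members, and distances between the farthest positions (chosen after seeing the data) gave 13.

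At 18°C against 25°C the members had 0 calls, but 1 with a pseudocount of 5, 1 with the share in percent, 1 with diffSplice, 2 with 10 in all 18 libraries and 0 to 2 without a time point. For all genes there were 3 to 7 without a time point. At 29°C against 25°C all genes had 2 with 10 in all 18 libraries, 2 with the share in percent and 1 to 3 without a time point, against 1. With scaling by library size, 41 member end levels differed at 18°C against 25°C (22 before) and 0 at 29°C against 25°C (2 before), and without a time point 12 to 21 and 0 to 1. With 10 in all 18 libraries the median member shares became 51.8% (18°C), 50.7% (25°C) and 51.4% (29°C). For light against dark no alternative gave a call.

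Same-numbered times did not pair the libraries, with correlations of -0.07 to 0.057. With time as a replicate block 9 members passed at 29°C against 18°C, all among the 12 (lost were *Meltrin*, *CG12484* and *frc*, adjusted p = 0.0515, 0.101 and 0.0807, limma), and 1 (*Ggamma30A*, adjusted p = 0.0206, limma) at 18°C against 25°C.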
